A study of Mus musculus with 2 samples.

Results

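miR-140 is a microRNA of the Mir140 hairpin, a 70-nt stem-loop that lies in an intron of Wwp2, a gene for a ubiquitin ligase. Its reads were followed in small RNA from 2 immortalized clonal lines of mouse mesenchymal stem cells (MSCs), fibroblast-like cells of adult bone marrow from C57BL/6 mice. A line with the genotype Dicer f/f (alleles flanked by recombination sites, which the labels treat as wild type) was set beside a line that is Dicer -/-. The labels do not say which part of Dicer was deleted or how; both lines were grown in alpha-MEM with 10% serum to near confluence. Each genotype had 1 library of 1 monoclonal line, so genotype, clone and library cannot be told apart, and no p-value is given. Members were all distinct read sequences of at least 18 nt that lie in sense and without mismatch in the hairpin. There were 81 of them among 1236583 distinct sequences of both libraries, 66 in Dicer f/f with 118888 reads and 25 in Dicer -/- with 149 reads, of which 10 occurred in both. None of the 81 matched another annotated gene than Mir140 and its host Wwp2, and no read of that length lay antisense to the hairpin.

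A microRNA hairpin is first cut out of its primary transcript by Drosha, which sets the 5′ end of the 5p arm and the 3′ end of the 3p arm. Dicer then cuts off the loop, which sets the other ends, and an Argonaute protein keeps an arm of the resulting duplex. Bases 2 to 8 of that arm, the seed, choose its target mRNAs, so a shift of the 5′ end by a base changes the targets. miR-140 is best known from cartilage, where the transcription factor Sox9 drives it and where its loss in mice impairs the growth of long bones.

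Mir140 (ENSMUSG00000065439.1) lies at chr8:107551244-107551313 on the plus strand (GRCm38, GENCODE M21). The hairpin falls in intron 16 of the main Wwp2 transcript, which is 2141 nt long, and inside an exon of a Wwp2 transcript annotated as a retained intron. The hairpin is shown with the most abundant 5p read of Dicer f/f (bases 6 to 27) and the RefSeq mature 3p arm (bases 45 to 65) in capitals, and then the main arm sequences with the seed in capitals, because the results turn on where each arm starts and ends. Positions are counted from the first base of the hairpin. Reads are written with T as deposited, and the RefSeq entry (GRCm38.p6) with U; of the arms, only miR-140-3p was matched in the RefSeq table.
Mir140 hairpin: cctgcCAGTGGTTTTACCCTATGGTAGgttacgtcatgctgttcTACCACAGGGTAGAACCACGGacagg
RefSeq miR-140-3p, bases 45 to 65: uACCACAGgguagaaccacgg
3p read, bases 46 to 67: aCCACAGGgtagaaccacggac
3p read, bases 46 to 68: aCCACAGGgtagaaccacggaca
3p read, bases 45 to 67: tACCACAGggtagaaccacggac
5p read, bases 6 to 27: cAGTGGTTttaccctatggtag
5p read, bases 7 to 28: aGTGGTTTtaccctatggtagg
The lines show 4 seeds from 1 hairpin. The seed of the leading 3p reads, CCACAGG, was not that of any other of 1738 RefSeq mouse mature miRNAs, and the seed of the RefSeq entry, ACCACAG, was shared with miR-497b alone. The leading 5p seed, AGTGGTT, was shared with miR-876-3p alone, and the seed of the shifted 5p read, GTGGTTT, with none. No read of either library lay in the hairpins of miR-497b or miR-876.

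The Dicer f/f library held 9943989 reads and the Dicer -/- library 6291599, so a count of 0 allowed up to 0.302 and 0.477 CPM (counts per 1000000 reads of the library). miRNA hairpins took 59.6% of all reads in Dicer f/f and 2.17% in Dicer -/-. All 10 hairpins of a mesenchymal marker list (miR-199, miR-214, miR-143, miR-145, miR-21, miR-22 and miR-125b) had reads in both libraries, 212529 CPM and 5126 CPM in sum. Blood, endothelial and epithelial marker miRNAs stood at 3.62, 33.5 and 1.31 CPM in Dicer f/f and at 11.9, 2.07 and 17.3 CPM in Dicer -/-; the muscle list stood at 225 and 1.27 CPM. Their part in the results was not tested. Among fragments of the listed mesenchymal mRNAs, Col1a2, a collagen chain of fibroblasts, had 51 and 544 reads. Col1a1 had 27 and 155, Col3a1 2 and 199 and Pdgfrb 7 and 74. Eng had 1 and 13, Ly6a 0 and 6 and Nt5e 0 and 3, while Thy1 had none in either library. Of the 4 markers of other cells, Ptprc, Epcam and Cdh5 had none, and the endothelial Pecam1 had 4 reads in Dicer f/f and 1 in Dicer -/-. Dicer1 itself had 2 and 23 fragment reads that match no other gene; the deleted exon is not named in the labels, so they do not check the genotype. Each interval given is a 95% interval and covers the error of counting alone, because reads copied by PCR are not independent molecules.

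miR-140 was among the abundant miRNAs of the Dicer f/f cells, and nearly all of it was gone from the Dicer -/- library. The hairpin gave 11956 CPM (11888 to 12024) in Dicer f/f and 23.7 CPM (20.03 to 27.8) in Dicer -/-, a level 505-fold lower (430 to 597). The 3p arm, to which a read was assigned if its centre lay past the middle of the hairpin, had 72091 reads in Dicer f/f and 24 in Dicer -/-. That is 7250 CPM against 3.81 CPM, 1901-fold lower (1277 to 2966). The 5p arm had 46797 and 125 reads, 4706 CPM against 19.9 CPM, 237-fold lower (199 to 285). Some of these reads lay across the loop. Counted by an overlap of at least 15 nt with the mature arm, the 3p arm had 71912 and 13 reads, 3500-fold lower (2047 to 6573). The 5p arm then had 46797 and 118 reads, 251-fold lower (209 to 303). By either rule the fold of the 3p arm exceeded that of the 5p arm with intervals that do not overlap. The ranks and nearest species below use the midpoint rule. In bulk RNA, fewer cells with miR-140 and less miR-140 per cell cannot be told apart.

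Set beside the other miRNAs, both arms lay low in the range of ratios. Of 314 species (a hairpin, or hairpins that share a read, and an arm) with 100 or more reads in Dicer f/f, 87.9% had levels in Dicer -/- that were over 2-fold lower, and the median log2 ratio was -5.22. Among 3p species this share was 95% with a median of -6.35, and among 5p species 82% with a median of -4.46. The limit was set on Dicer f/f reads alone, which favours lower ratios. Species abundant only in Dicer -/-, such as miR-10b-5p with 10 and 231 reads, could not enter. The log2 ratios of miR-140-3p and miR-140-5p were -10.89 and -7.89. Among miRNA species of the same arm with 1000 or more reads in Dicer f/f and any read in Dicer -/-, miR-140-3p had the fifth lowest ratio of 56 and miR-140-5p the 11th lowest of 88. A further 11 of the 3p species had no read in Dicer -/- and were not ranked. By level in Dicer f/f, the arms stood at ranks 16 (3p) and 21 (5p) of all species, with 1.22% and 0.790% of the miRNA reads.

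**Figure D1:**
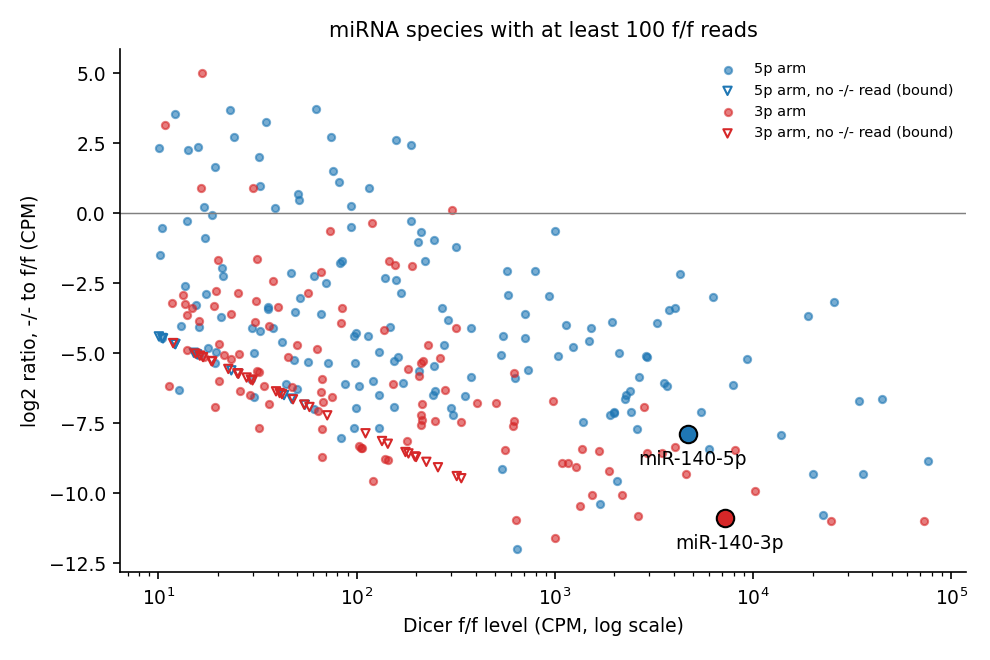
Each point is a miRNA species that had 100 or more reads in Dicer f/f; the x axis is its level in Dicer f/f (CPM, log scale), the y axis the log2 ratio of Dicer -/- to Dicer f/f, and open triangles are species with no Dicer -/- read, drawn at the bound for 3 counts. miR-140-3p lies at -10.89 and miR-140-5p at -7.89, both below the medians of their arms (-6.35 and -4.46).

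The species of the same arm with the nearest log2 ratio over the 2 libraries were miR-130a-3p, miR-365-3p and the 3p species shared by the miR-199 hairpins. The first was 1827-fold lower (963 to 3997) on 9 reads in Dicer -/-, the next 1995-fold (552 to 16474) on 2 reads, and the last 2022-fold (1618 to 2563) on 77 reads. For miR-140-5p they were a let-7a-5p species of 2 hairpins (245-fold lower), a miR-196a-5p species of 2 hairpins (208-fold) and miR-298-5p (204-fold). The let-7a and miR-196a species hold only reads that their hairpins share, with none of 24 nt or more in Dicer -/-. Reads of 1 such hairpin alone were counted apart and had other ratios: Mirlet7a-1-5p had 64 and 1216 reads, and Mir196a-2-5p 5706 and 856. A likeness over 2 libraries is a description only.

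The leading sequence of the 3p arm, of 22 nt from base 46 to base 67, had 43836 reads in Dicer f/f and 8 in Dicer -/-, 3467-fold lower (1759 to 8031). Its 23-nt form, which ends a base later, had 11628 reads in Dicer f/f and none in Dicer -/-, at least 2452-fold lower against a floor of 3 counts. The 21-nt form from base 46 (4789 reads) and the forms from base 45 of 23 nt (3311 reads) and 22 nt (2223 reads) were also without a read in Dicer -/-. Of the 5 leading 3p sequences of Dicer f/f, only the first was therefore seen in Dicer -/-. The leading 5p sequence, of 22 nt from base 6 to base 27, had 32684 and 20 reads, 1034-fold lower (669 to 1693). The next 3 leading 5p forms from base 6, which differ from it in their end, were lower by smaller folds: that of 21 nt had 7694 and 19 reads (256-fold lower, 164 to 426), that of 20 nt 2049 and 12 reads (108-fold, 61.7 to 209) and that of 23 nt 2010 and 11 reads (116-fold, 64.5 to 232). These intervals do not overlap that of the 22-nt form from base 6. The 22-nt form from base 7 to base 28 had 1328 and 4 reads, 210-fold lower (81.8 to 772), with an interval that does overlap it.

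Mir140 kept both arms of its duplex to a degree that was uncommon among the hairpins with reads of their own. In Dicer f/f the 3p arm held 60.6% of the hairpin's reads (60.4 to 60.9) and the 5p arm the other 39.4%. Of 104 hairpins with 1000 or more reads in Dicer f/f that no other hairpin shares, the lesser arm held a median of 3.55% (quartiles 0.785% and 13.5%), and Mir140 had the fifth largest lesser share. Ahead of it came Mir214, with 49.2% on its lesser arm, Mir872, Mir423 and Mir501. Only 29 of the 104 hairpins had 1000 or more such reads on each arm. Among these 29 the lesser arm of Mir140, with its 46797 reads, was the most abundant. Reads that hairpins share were left out of this comparison, and with them the main species of miR-199. Its 5p species of Mir199a-1 and Mir199a-2 had 188058 reads in Dicer f/f. The 3p species, shared with Mir199b as well, had 246116. Both exceeded the lesser arm of Mir140.

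In Dicer -/- the 3p arm held 16.1% of the hairpin's reads (10.6 to 23.01), and the order of the arms was the reverse of that in Dicer f/f. Of the 104 hairpins, 84 had at least 20 reads in Dicer -/-. Over these the 3p share was lower than in Dicer f/f by a median of 3.68 percentage points. For Mir140 it was lower by 44.5 points, the 19th largest of these differences. The midpoint rule counts reads across the loop as an arm. With an arm defined by an overlap of at least 15 nt with the mature arm, the 3p share was 60.5% in Dicer f/f and 8.72% (4.73 to 14.5) in Dicer -/-, where 118 reads lay on the 5p arm, 13 on the 3p arm and 18 on neither.

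**Figure D2:**
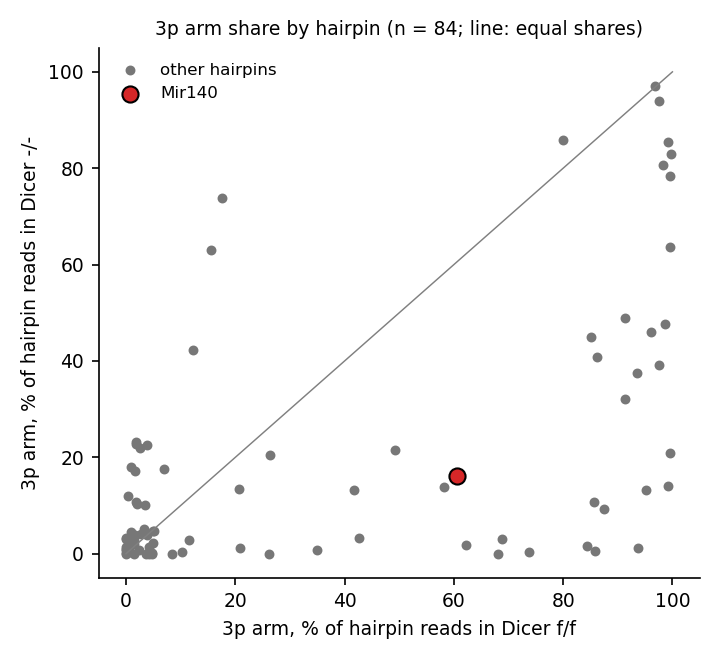
Each point is a hairpin with 1000 or more reads in Dicer f/f and 20 or more in Dicer -/-; the axes give the 3p arm's percentage of the hairpin's reads in each library, and the line marks equal shares. Mir140 lies at 60.6% and 16.1%, below the line.

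Most miR-140-3p reads did not start where the RefSeq entry starts. In Dicer f/f, 86.3% of 3p reads (86.1 to 86.6) began at base 46, a base after the start of the RefSeq sequence, and 11.95% (11.7 to 12.2) at base 45, where that entry begins. A further 1.16% began at base 47. The RefSeq sequence itself, bases 45 to 65, had 1588 reads, 18.4% of the reads from base 45. Over 67 miRNA species of the 3p arm that had 1000 or more reads in Dicer f/f, the commonest 5′ end held a median of 96.5% of reads (quartiles 84.2% and 98.4%), and miR-140-3p had the 19th lowest share. The 5p arm was more uniform: 95.2% of its reads (95.05 to 95.4) began at base 6 and 4.50% at base 7, against a median of 98.7% over 88 species of the 5p arm, of which it had the 14th lowest share.

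In the Dicer -/- library most 5p reads kept the f/f start, while the 3p share depended on how reads across the loop were counted. Of the 5p reads, 81.6% (73.7 to 88.0) still began at base 6, and of the 118 that overlap the mature arm 86.4% (78.9 to 92.05). Over 74 species of the 5p arm with 20 or more reads in Dicer -/-, the share that kept the f/f start had a median of 97.7%, and miR-140-5p had the 8th lowest. Of the 24 reads centred on the 3p side, 8 began at base 46, 33.3% (15.6 to 55.3), and none at base 45. Among the 13 that overlap the mature 3p arm these 8 made up 61.5% (31.6 to 86.1). They were copies of a single sequence, the 22-nt form from base 46 to base 67. Among reads of 18 to 23 nt the share that kept the start was 86.1% for 5p (62 of 72, 75.9 to 93.1) and 88.9% for 3p (8 of 9, 51.8 to 99.7). By overlap and at these lengths the intervals of the arms overlap, so a difference between the arms was not detectable.

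**Figure D3:**
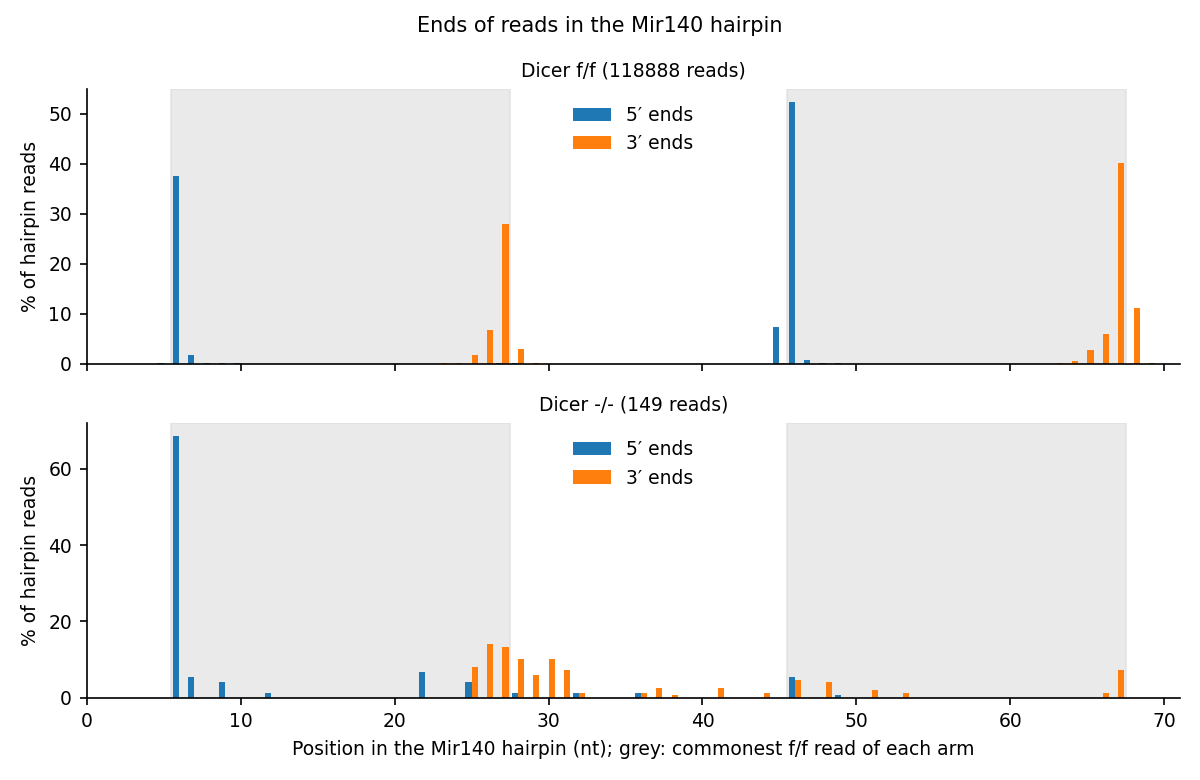
The bars give, for each position in the hairpin, the percentage of the library's hairpin reads whose 5′ end (blue) or 3′ end (orange) lies there, for Dicer f/f (118888 reads) and Dicer -/- (149 reads); grey marks the commonest f/f read of each arm. In Dicer f/f the ends stand in narrow groups at bases 6, 27, 46 and 67, while in Dicer -/- the 5′ ends stay mainly at base 6 and the 3′ ends spread from base 25 to base 53, with 13 more reads that end at bases 66 and 67.

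In Dicer f/f the 3′ ends were less fixed than the 5′ ends on both arms, and on the 5p arm the commonest 3′ end differed with the start. There the 3p arm ended at base 67 in 66.2% of reads, at base 68 in 18.3% and at base 66 in 9.83%. The 5p arm ended at base 27 in 71.1% and at base 26 in 16.96%. On the 5p arm, reads from base 6 ended at base 27 in 73.3% of cases (72.9 to 73.7) and reads from base 7 at base 28 in 63.1% (60.99 to 65.2), so that 22 nt was the commonest length from either start. On the 3p arm the commonest end stayed at base 67 for reads from bases 45, 46 and 47, with 38.4%, 70.4% and 54.4%. Reads from base 45 ended at base 66 or base 65 in 25.8% and 18.4% of cases, against 7.70% and 2.64% of reads from base 46.

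**Figure D4:**
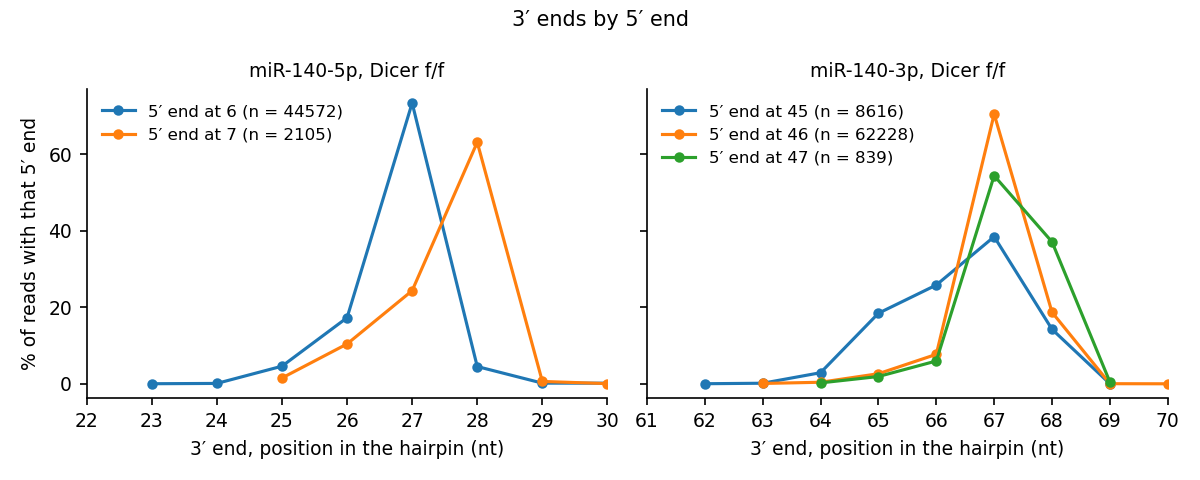
Lines give, for Dicer f/f reads with a given 5′ end, the percentage that end at each position of the hairpin (x axis, nt), on the 5p arm (left) and the 3p arm (right). The 5p lines peak at base 27 for reads from base 6 and at base 28 for reads from base 7, whereas the 3p lines share a peak at base 67.

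The cut sites can be placed on a predicted fold of the hairpin. The minimum free energy structure (-39.1 kcal/mol) pairs 60 of the 70 bases. In it base 46 stands opposite base 25, so the 5p end at base 27 extends 2 bases past the leading 3p start, the overhang that an RNase III enzyme leaves. Base 45, the RefSeq start, stands opposite base 26. On the side cut by Drosha, base 6 stands opposite base 64 and base 67 opposite base 4. These pairs are a computed structure and were not measured.

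Reads of the size of a Dicer product made up nearly all of miR-140 in Dicer f/f, while longer reads made up a large share in Dicer -/-. Reads of 24 nt or more were 1.12% of the hairpin's reads in Dicer f/f (1.06 to 1.18) and 45.6% in Dicer -/- (37.5 to 54.0). Over all miRNA hairpins the same shares were 2.82% and 73.8%, so the share in Dicer -/- was lower for Mir140 than for all hairpins together. By the midpoint rule, the 5p arm had 42.4% long reads in Dicer -/- (33.6 to 51.6), the 19th lowest of 74 species with a median of 72.4%. Some species below it hold only reads that hairpins share, with none of 24 nt or more in Dicer -/-. Those of let-7c and miR-16 are examples, and longer reads of their single hairpins were counted apart. The rank and the median thus depend on how species were defined. The 3p arm had 62.5% (40.6 to 81.2), the 25th lowest of 33 with a median of 37.9%. On the 5p arm, reads of 18 to 23 nt fell from 46714 to 72, 411-fold lower in CPM (326 to 525). The longer 5p reads numbered 83 and 53, a ratio of 1.01 (0.701 to 1.44). Nearly all of the 83 were of 24 nt; at 25 nt or more there were 2 in Dicer f/f and 44 in Dicer -/-. On the 3p arm, reads of 18 to 23 nt fell from 70840 to 9, 4980-fold lower (2623 to 10892), and longer reads from 1251 to 15, 52.8-fold lower (31.9 to 94.6). Of those 1251, 1227 were the 24-nt form from base 45 to base 68. Most of the 15 in Dicer -/- lay across the loop, from base 25 to base 48 (6 reads), 22 to 51 (3) and 28 to 53 (2). Only 2 reads of 31 nt and 2 of 36 nt overlap the mature 3p arm by at least 15 nt. The 3p share of long reads and its rank thus rest mainly on loop reads.

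**Figure D5:**
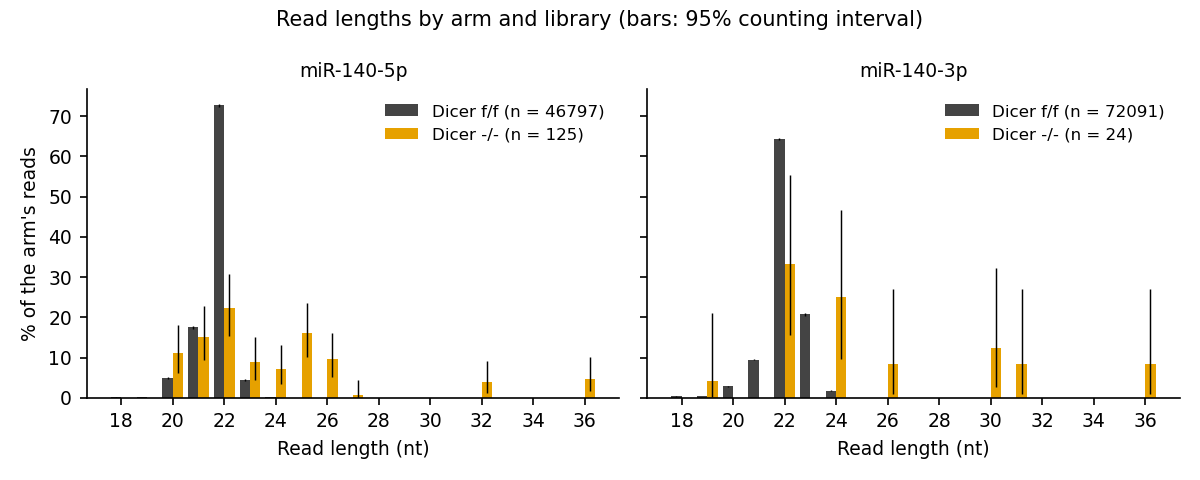
Bars give the percentage of each arm's reads at each length (nt) in Dicer f/f (dark) and Dicer -/- (yellow), with 95% counting intervals. In Dicer f/f 72.7% of 5p reads and 64.3% of 3p reads are of 22 nt, while the 125 and 24 reads of Dicer -/- reach up to 36 nt, the longest read the files hold.

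The 5p reads of Dicer -/- shared a start and differed in their end. All 102 reads from base 6 fell on 10 sequences that ended between base 25 and base 41. Of these, 30.4% ended before base 27, 19.6% at it (12.4 to 28.6) and 50.0% after it (39.9 to 60.1), against 21.98%, 73.3% and 4.69% in Dicer f/f. The forms of 25 and 26 nt had 11 reads each in Dicer -/- and none in Dicer f/f. The sequences are shown because they run from the 5p start through the loop.
bases 6 to 27, 20 reads in Dicer -/-: cAGTGGTTttaccctatggtag
bases 6 to 30, 11 reads: cAGTGGTTttaccctatggtaggtt
bases 6 to 37, 4 reads: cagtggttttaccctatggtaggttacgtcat
bases 6 to 41, 4 reads: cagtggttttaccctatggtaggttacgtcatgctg
Capitals in the shorter forms mark the seed. The longest of these is of 36 nt, where the files stop, so an insert of that length may have been longer. It was also the only 5p sequence of more than 24 nt in Dicer f/f, with 2 reads.

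The loop was found as a piece of its own in Dicer f/f and as part of longer reads in Dicer -/-. In Dicer f/f, 165 reads (16.6 CPM, 14.2 to 19.3) were the 18 nt from base 28 to base 45, that is, exactly the bases between the leading 5p and 3p sequences.
loop read, bases 28 to 45: gttacgtcatgctgttct
No copy of it was found in Dicer -/-, at least 34.8-fold lower against the floor of 3 counts. The other 14 reads of the loop in Dicer f/f began at base 27. The midpoint rule counts all of these with the 3p arm. In Dicer -/-, 18 reads lay across the loop with less than 15 nt in either arm, all of 24 nt or more, and Dicer f/f had none of that kind. They ran from base 22 to base 46 (7 reads), from base 25 to base 48 (6), from base 22 to base 51 (3) and from base 28 to base 53 (2).
bases 22 to 46: tGGTAGGTtacgtcatgctgttcta
bases 25 to 48: tAGGTTACgtcatgctgttctacc
Capitals mark bases 2 to 8 of these reads, which are not the seed of either arm.

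Reads with bases at the 3′ end that the hairpin does not encode were frequent in Dicer f/f. A tail was counted where 1 to 3 last bases all differed from the hairpin behind a match of at least 18 nt. Tailed reads were 13.9% of the 5p arm (13.6 to 14.2) and 15.2% of the 3p arm (15.0 to 15.4), with the tailed reads in the denominator. A single T was the commonest tail on both arms, 7.92% of 5p reads and 7.45% of 3p reads, ahead of a single A with 4.64% and 3.98%. The leading forms are shown with the tail in capitals.
3p tail, 3820 reads: accacagggtagaaccacggacT
5p tail, 3790 reads: cagtggttttaccctatggtagT
3p tail, 2153 reads: accacagggtagaaccacggaA
For each 100 reads of the leading 5p sequence there were 11.6 with an added T, 2.57 with an added A and 0.0734 with an added C; the encoded G gave 6.15. For each 100 of the leading 3p sequence there were 8.71 with T, 1.11 with G and 0.744 with C, beside 26.5 with the encoded A. Reads with 1 substitution give the background of wrong bases: before the last 2 bases, a position of the 22-nt form carried a median of 0.340 (5p) and 0.411 (3p) such reads for each 100 exact ones. The highest of these positions carried 2.66, on the 3p arm. At the last base the rate was 6.603 and 6.81, but these are the same reads as tails of 1 base on the form that is a base shorter. The 2153 3p reads with a last A are an example, so the rate at the last base is no separate background.

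Over the miRNA species of its arm with 1000 or more reads in Dicer f/f whose next encoded base is not T, miR-140-5p had the second largest share with an added T, 9.63% of its leading sequence with and without an added base, against a median of 1.81% over 50 species. For miR-140-3p the share was 6.36%, the 23rd of 50, near the median of 6.20%. In Dicer -/- there were 11 tailed reads in all, 2 on the 5p arm. The other 9 were 36-nt reads whose last 2 bases differed, and no 3p read there carried a tail of 1 base.

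Below 18 nt, miR-140 was seen almost only as reads of 16 nt, and most of these were the last 16 bases of an arm. Reads of 15 to 17 nt in the hairpin numbered 6759 in Dicer f/f (680 CPM, 664 to 696) and 5 in Dicer -/- (0.795 CPM, 0.258 to 1.85). None of them matched another annotated transcript than those of Mir140 and Wwp2. Of the 6759, 5555 were 16-nt reads of the 3p arm and 942 of the 5p arm. The end forms are shown because a single one holds most of the reads.
3p end form, bases 52 to 67, 4674 and 2 reads: gggtagaaccacggac
5p end form, bases 11 to 26, 641 and 1 reads: gttttaccctatggta
3p start form, bases 46 to 61, 315 and 0 reads: accacagggtagaacc
The 3p end form lacks the seed of the arm, whereas the start form keeps it. For each 100 reads of at least 18 nt that end at base 67 there were 9.79 of 16 nt with the same end, and 5.57 at base 66. At base 68, the end of 13220 longer reads, there were 0.0454. On the 5p arm the figure was 8.78 at base 25, 8.08 at base 26 and 0.303 at base 27, although base 27 is the commonest end of the longer reads. Reads of 16 nt were 3.90% of all reads of the Dicer f/f library and 6.20% of those of Dicer -/-. Per 100 reads of at least 18 nt, miR-140-3p had 7.71 of 16 nt, the 20th of 67 species of the 3p arm (median 6.50), and miR-140-5p had 2.01, the 46th of 88 (median 2.16). Both values lay within the quartiles of their arm (2.48 and 7.78 for 3p, 0.659 and 3.84 for 5p).

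Of other miRNAs linked to cartilage or its genes, those with 100 or more reads in Dicer f/f were also lower in Dicer -/-. Among the listed hairpins these were 17 species, and all 17 were over 2-fold lower, beside 87.9% of all species with as many f/f reads. Listed species below that limit were not counted. Reads of Mir199a-2 alone fell below it and were higher in Dicer -/-, with 66 and 997 on the 5p arm and 83 and 142 on the 3p arm. The median log2 ratio of the 17 was -5.72, beside -5.22 over all. miR-455-3p, which comes from an intron of the collagen gene Col27a1, had 3183 f/f reads and none in Dicer -/-. miR-145a-5p, known to target Sox9, had 358563 and 356 reads, 637-fold lower (574 to 709). miR-199a-5p, with 188058 and 9302 reads, was 12.8-fold lower (12.5 to 13.1).

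Fragments of mRNAs of the host and of cartilage genes were scarce and, like those of most genes, more frequent in Dicer -/-. Of 20 genes on the list, 13 had any fragment of at least 18 nt that matches no other gene, and 10 had at least 10 reads over both libraries. All 10 were more than 2-fold higher in Dicer -/-, as were 96.4% of 6439 genes with as many reads, so this share is that of the background. Scaled to snoRNA and snRNA reads, the count was 8 of the 10, without Wwp2 and Runx2, beside 51.9% of all genes. The median log2 ratio was 3.98 for the 10 without Mmp13 and Smad3, which had no read in Dicer f/f and so no finite ratio. For all genes the median was 3.196. Sox9, the cartilage regulator upstream of miR-140, had 1 and 26 reads, and Runx2, a regulator of bone and of cartilage maturation, 13 and 68. Of genes reported as miR-140 targets, Cxcl12, a chemokine, had 41 and 429 reads (16.5-fold higher, 11.99 to 23.4), Adamts5, an aggrecan protease, 3 and 18, Hdac4 and Dnpep 1 and 10 each, Smad3 0 and 22, and Igfbp5 none. The cartilage matrix genes Acan, Comp and Col11a1 had no fragment, and Col2a1 had 1 and 6. Wwp2 itself had 211 and 564 reads, of which 197 and 492 lay just upstream of the hairpin. Its other fragments numbered 14 in Dicer f/f and 72 in Dicer -/-, 8.13-fold higher (4.54 to 15.6).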

How the data were processed

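Total RNA was size-selected on a 15% urea gel (15 to 50 nt) and cloned by Illumina's small RNA protocol, per the labels' protocols. The values the authors deposited are unnormalized counts, 1 for every distinct read sequence of 5 to 36 nt in a library. The build mm9 is named per the submitters' processing notes; a trimming tool or aligner is not given in the sources used here. All coordinates are from GENCODE M21 (GRCm38), and none were converted. Groups came from the genotype label.

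Reads were matched without mismatch to GENCODE transcripts, and miRNA reads to 2198 hairpins. CPM used all reads of a file. Shares carry Clopper-Pearson, counts exact Poisson and ratios exact conditional intervals (95%). The matching and intervals were tested on simulated data. The members, lists and tests were chosen with earlier results of these data known. Named were the 5 leading sequences of each arm and library, every 5′ end with at least 5% of an arm, the 3 species of each arm nearest in log2 ratio, and the lists; loop, tail, short and upstream forms were picked with their values in view. The alternatives varied the denominator, lengths, copies, match and arm rule. Python 3.11.15, numpy 2.4.6, pandas 2.3.3, scipy 1.17.1, matplotlib 3.10.9 and RNAfold 2.7.2 were used.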

Additional observations from a re-analysis of the deposited data

Results flagged for a closer look

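Reads just upstream of the hairpin lay outside the members and were more abundant in Dicer -/- than miR-140 itself. They end at base 5 of the hairpin, the base before the 5p start, and numbered 192 in Dicer f/f (19.3 CPM, 16.7 to 22.2) and 483 in Dicer -/- (76.8 CPM, 70.1 to 83.9). They were noted because they are a signal outside the miR-140 reads, above what a count of 0 allows. In the report they enter only the fragment count of Wwp2. Reads that abut an arm in this way are known as microRNA-offset RNAs. The commonest, at chr8:107551230-107551248 (GRCm38, plus strand), had 121 and 256 reads, and no form matched an annotated gene other than Wwp2. The genome was not searched, so whether this CT-rich sequence has another origin was not tested.
upstream read: gtctctctctgtgtcctgc
In Dicer f/f there were 0.410 upstream reads for each 100 reads of miR-140-5p, whereas in Dicer -/- their 483 reads stood beside 125 of the 5p arm. Per library read they were 3.98-fold higher in Dicer -/- (3.36 to 4.72), per read that matches a transcript 13.4-fold (11.3 to 15.9), and per snoRNA and snRNA read the ratio was 0.915 (0.772 to 1.09).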

How the results depend on the processing

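The direction of the hairpin and both arms held under the 9 alternatives tried, with log2 ratios from -13.01 to -6.13. Per reads that match a transcript, which shifts every ratio by 1.75, they were -7.23 (hairpin), -9.14 (3p) and -6.13 (5p); per snoRNA and snRNA reads, a shift of -2.12, they were -11.10, -13.01 and -10.01. With 18 to 23 nt only they were -9.84, -12.28 and -8.68, the 3p share in Dicer f/f 60.3%, and the share of 3p reads from base 46 was 87.8% in Dicer f/f and 88.9% in Dicer -/-, the last on 9 reads. The same limit moved the share that ends at the commonest 3′ end to 67.4% (3p, f/f), 27.8% (5p, -/-) and 100% (3p, -/-), and the tailed share to 13.195% and 2.41%. Counting each distinct sequence once gave 3p shares of 56.1% and 28.0%, long-read shares of 12.1% and 64.0% and base-46 shares of 21.6% and 14.3%. It also gave base-6 shares of 27.6% and 55.6%, commonest 3′ end shares of 20.7% and 5.56% (5p) and 16.2% (3p, f/f), and tailed shares of 80.98% and 13.8%. Tails of A or T alone were 13.1995% in Dicer f/f. Long reads from 23 nt were 15.4% of Dicer f/f, and from 25 nt 0.00589% and 35.6% of the 2 libraries. With arms by overlap, Dicer -/- had a 3p share of 8.72% and a base-46 share of 61.5% and a base-67 end in 84.6% of 3p reads; both end shares were added after seeing the data. With at least 1000 f/f reads 150 species, in place of 276, were more than 2-fold lower, since fewer species were counted. Fragments of all genes that were more than 2-fold higher numbered 3341, in place of 6207, per snoRNA and snRNA reads, a scaling also added after seeing the data. Shares in Dicer -/- rest on 149 reads, and on 24 for the 3p arm. No paired analysis was possible because each genotype has 1 library.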
